A study of Mus musculus with 4 samples.

Results

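The regions described here were open chromatin calls shared by 3 libraries of E15.5 mouse lung and missing from the other one. Peaks of 4 deposited lists were merged where they overlapped or adjoined, on chromosomes 1 to 19. A merged region was kept when it held a peak from each of the 3 lists whose peak names say Frozen (replicates 2, 3 and 4) and none from the list whose peak names say Frais, the French word for fresh (replicate 1). These are called Frozen-only regions. They numbered 24967 of 298755 merged regions, or 8.36%, and covered 23.1 Mb. They were chosen by the peak calls themselves, so their number, strength and width are given as descriptions.

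The assay was ATAC-seq on whole lungs of wild-type embryos at E15.5, in 1 group of 4 replicates with no treatment and no transgene. Per the labels' protocols, the lungs of every replicate were snap-frozen and 60000 nuclei were exposed to Tn5 transposase. The word Frais therefore stands against the protocol and appears in the peak names of 1 library only, so the naming and the library cannot be told apart. Separate embryos or litters are not named for the replicates in the labels, and the spread between libraries may be technical.

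In ATAC-seq a transposase inserts adapters where DNA is accessible, so active promoters and enhancers yield dense insertions. Many mammalian promoters lie in CpG islands, stretches in which the CG dinucleotide has escaped the loss seen in the rest of the genome. In tissues where they are silent, the CpG-island promoters of developmental regulators, such as the posterior Hox genes and the Pax family, are typically held by Polycomb group proteins, and their CpG islands stay largely free of DNA methylation. Expression and Polycomb binding were not measured in these files, so no promoter below is called silent from the data.

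The Frozen lists held 180007, 208926 and 187928 autosomal peaks in replicates 2, 3 and 4, against 131449 in the Frais list of replicate 1. The fold enrichment that the authors deposited for each peak, its height over the background, had a median of 3.86, 3.90 and 3.73 in the Frozen lists and 8.99 in the Frais list. The lowest fold listed was 2.48, 2.51 and 2.49 against 2.89, and the bases covered were 137, 156 and 159 Mb against 76.7 Mb. The Frais list was thus shorter, with stronger peaks and a higher floor. Read totals were not analysed here, so the depth behind a missing peak is unknown, and a region without a Frais peak was not called at the authors' threshold rather than shown to be closed. Lung markers were checked by the strongest peak within 1 kb of an annotated end. Foxf1, a mesenchymal forkhead factor, had a fold of 32.0, 22.8 and 29.9 in the Frozen lists and 109 in the Frais list. Nkx2-1, the lineage factor of lung epithelium, had 14.9, 13.4 and 15.6 against 21.5. Of the markers of other cell types, Alb of liver and Ptprc of blood had no peak at an annotated end in any list, and Neurod1 of neurons had 4.42 and 3.06 in replicates 2 and 3 and none in replicate 4 or in the Frais list. Afp of liver had a Frais peak alone, at 4.82, while Spi1 of blood had 16.3, 17.3 and 14.6 against 29.6 and Elavl3 of neurons 5.80, 8.08 and 8.40 against 3.85. Csf1r of macrophages had 3.62 and 3.11 in replicates 3 and 4 alone. Myh6 of heart muscle had 3.04, 2.79 and 4.67 and no Frais peak. The Frozen-only region of Myh6 lay at its 3′ end, 23845 bp downstream of the nearest annotated start. That region had 3.04, 2.79 and 3.11, at an averaged percentile of 15.4, and the 4.67 came from another region. Nppa of heart muscle had 3.86, 3.62 and 3.11 and no Frais peak, with no single region in all 3 Frozen lists, while Myog of skeletal muscle was called in every list, at 3.31, 4.74 and 5.29 against 6.10. The part of such cells in the results was not tested.

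Promoters under Frozen-only regions ranged from CpG islands to DNA with almost no CG dinucleotide, which the next 6 sequences show. Each is the RefSeq promoter window of GRCm38.p6, from 250 bases before to 50 bases after an annotated start, read 5′ to 3′ on the strand of the gene, with every CG dinucleotide in capitals. The upper 4 had the highest ratio of observed to expected CpG in a pool of 21 genes named by rule whose start lay under a Frozen-only region, and the lower 2, chosen after the values were seen, had the lowest. Genes named after their values were seen are not in the pool, and Sp8 among them had a ratio of 1.19, against 1.10 for Nkx2-4. Nkx2-4 (chr2:147085296-147085595, minus strand, 38 CG) encodes a homeodomain factor of the embryonic forebrain. Hoxd13 (chr2:74667975-74668274, plus strand, 37 CG) patterns digits and the urogenital tract. The Hoxd11 window (chr2:74682073-74682372, plus strand, 25 CG) belongs to a start inside the annotated gene. Olig2 (chr16:91225300-91225599, plus strand, 25 CG) specifies motor neurons and oligodendrocytes. Cyp2f2 (chr7:27119705-27120004, plus strand, 0 CG) encodes a club cell cytochrome P450, and its annotated ends also held Frais peaks in other regions. Ambp (chr4:63154123-63154422, minus strand, 3 CG) encodes a plasma protein made by liver.
Nkx2-4: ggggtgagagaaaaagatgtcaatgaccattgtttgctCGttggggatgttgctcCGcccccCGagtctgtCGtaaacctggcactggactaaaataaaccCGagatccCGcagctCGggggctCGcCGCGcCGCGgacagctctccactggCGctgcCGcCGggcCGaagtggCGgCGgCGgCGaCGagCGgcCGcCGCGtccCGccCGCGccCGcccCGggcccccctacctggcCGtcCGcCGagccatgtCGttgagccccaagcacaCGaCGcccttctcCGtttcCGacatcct
Hoxd13: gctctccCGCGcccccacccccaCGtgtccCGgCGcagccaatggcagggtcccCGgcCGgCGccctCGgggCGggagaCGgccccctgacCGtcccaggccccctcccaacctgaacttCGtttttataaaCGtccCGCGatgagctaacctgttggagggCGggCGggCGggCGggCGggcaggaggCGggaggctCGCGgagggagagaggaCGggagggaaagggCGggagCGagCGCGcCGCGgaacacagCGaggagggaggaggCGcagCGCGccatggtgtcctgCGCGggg
Hoxd11: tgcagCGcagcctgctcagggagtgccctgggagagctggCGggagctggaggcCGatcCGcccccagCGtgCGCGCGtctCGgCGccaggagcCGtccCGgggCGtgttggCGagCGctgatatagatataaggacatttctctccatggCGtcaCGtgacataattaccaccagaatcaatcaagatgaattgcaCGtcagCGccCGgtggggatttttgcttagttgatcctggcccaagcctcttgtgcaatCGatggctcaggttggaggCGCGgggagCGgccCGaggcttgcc
Olig2: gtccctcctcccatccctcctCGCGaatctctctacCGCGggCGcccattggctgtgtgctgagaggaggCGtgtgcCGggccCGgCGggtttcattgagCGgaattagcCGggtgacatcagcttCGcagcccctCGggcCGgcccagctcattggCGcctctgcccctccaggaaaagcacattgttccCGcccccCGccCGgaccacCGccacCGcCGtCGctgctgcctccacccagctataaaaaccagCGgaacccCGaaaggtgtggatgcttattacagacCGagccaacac
Cyp2f2: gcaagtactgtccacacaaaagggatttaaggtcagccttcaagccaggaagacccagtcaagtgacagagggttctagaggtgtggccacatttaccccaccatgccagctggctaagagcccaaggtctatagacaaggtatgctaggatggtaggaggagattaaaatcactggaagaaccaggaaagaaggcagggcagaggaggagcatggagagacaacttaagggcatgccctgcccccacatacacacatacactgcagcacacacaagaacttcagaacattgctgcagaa
Ambp: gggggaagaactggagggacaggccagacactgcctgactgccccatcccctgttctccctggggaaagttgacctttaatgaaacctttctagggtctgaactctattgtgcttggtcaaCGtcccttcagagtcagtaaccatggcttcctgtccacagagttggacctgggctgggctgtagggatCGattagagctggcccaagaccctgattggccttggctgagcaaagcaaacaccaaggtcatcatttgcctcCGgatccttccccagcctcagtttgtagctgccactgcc

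In the Frozen lists, the strength of the peaks over these 6 starts was modest. Nkx2-4 had a fold of 4.42, 5.85 and 4.05 in replicates 2, 3 and 4, Hoxd13 had 4.14, 6.13 and 4.98, and the inner Hoxd11 start had 3.86, 6.13 and 6.22. Olig2 had 3.31, 4.18 and 3.11, Cyp2f2 had 5.25, 4.18 and 4.05, and Ambp had 3.59, 3.90 and 2.80. The 4 CpG-dense and 2 CpG-poor starts overlapped in fold, and their Frais value was in each case no peak.

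Frozen-only regions far outnumbered the regions missing from any Frozen list alone. Of the 89805 regions with a peak in all 3 Frozen lists, 27.8% lacked a Frais peak. Regions missing replicate 2, 3 or 4 alone numbered 3418, 3167 and 5855, which was 5.01%, 4.66% and 8.28% of the regions held by the other 3 lists. Another 26378 regions were Frais-only and 64838 were in all 4 lists. The excess over replicate 4 depended on the peak threshold. With a q of 1e-05 or less in every list, 5202 regions were Frozen-only, against 2146, 2230 and 5601 that lacked replicate 2, 3 or 4 alone. With every list cut to its strongest 131449 peaks, the counts were 12190 against 2793, 3812 and 5207.

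**Figure D1:**
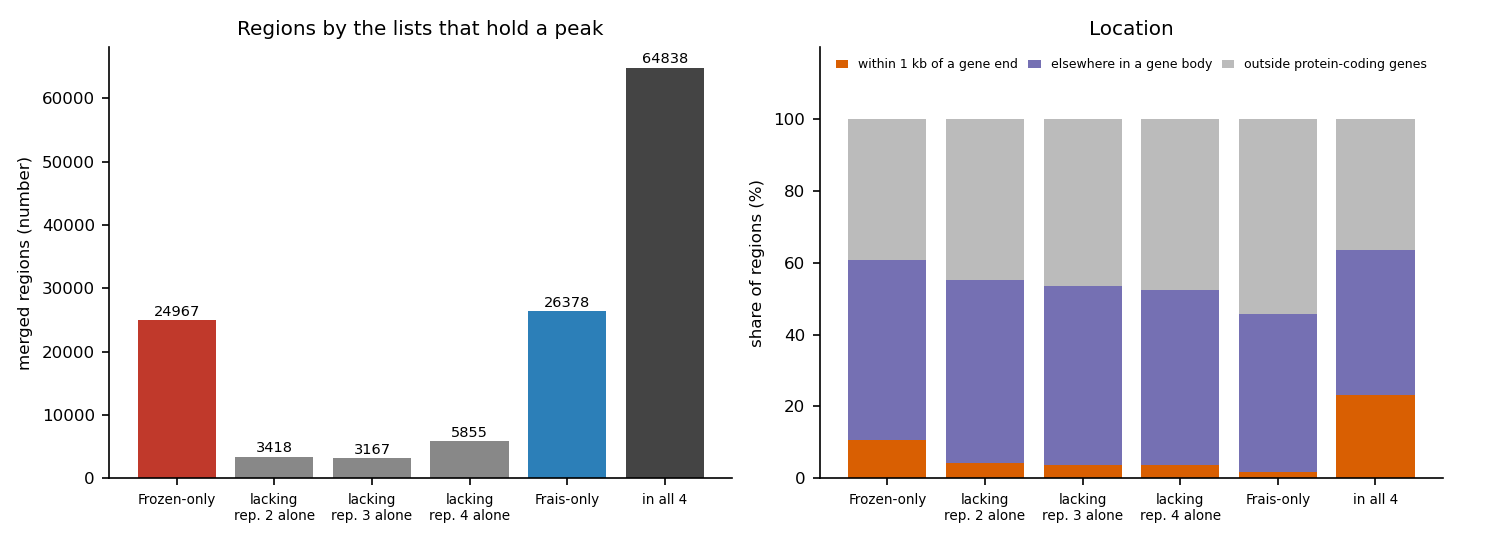
Left, the number of merged regions on chromosomes 1 to 19 by the lists that hold a peak, with 24967 Frozen-only regions first and 64838 regions in all 4 lists last. Right, the share of each class (%) within 1 kb of an annotated end of a protein-coding gene, elsewhere in a gene body, or outside such genes; the Frozen-only share at gene ends, 10.6%, lies between the 3.79% to 4.27% of regions lacking 1 Frozen list and the 23.3% of regions in all 4.

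Near the edge of the rule, a Frais peak lay 1 bp from the nearest Frozen-only region, and 213 of these regions had one within 100 bp. The median distance to the nearest Frais peak was 1.92 kb, and for 7353 regions, or 29.5%, it was under 1 kb. On the other side of the edge, 681 regions in all 4 lists had less than 10% of their length covered by Frais peaks. Many Frozen-only regions were neighbours of shared ones: 74.1% had a region in all 4 lists within 5 kb, against 47.9%, 43.0% and 38.6% of the regions lacking replicate 2, 3 or 4 alone.

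Frozen-only regions lay at gene ends more often than the other regions missing 1 list. Against regions in all 4 lists the order depended on peak strength. Within 1 kb of an annotated start or end of a protein-coding gene were 2642 of them, or 10.6% (95% exact binomial interval 10.2% to 11.0%, which covers counting error only). The share was 4.27%, 3.79% and 3.83% for regions lacking replicate 2, 3 or 4 alone, 1.80% for Frais-only regions and 23.3% for regions in all 4. At matched strength, in bins of the percentile of fold averaged over the Frozen lists, Frozen-only regions were the higher ones in each of the 8 bins below the 80th percentile, with 10.1% against 5.88% between the 40th and 50th and 13.2% against 10.8% between the 70th and 80th. Above the 80th percentile they were lower, at 11.6% against 17.5% up to the 90th and 2.17% against 55.8% beyond it. Elsewhere in gene bodies lay 12530, or 50.2%, and outside protein-coding genes 9795, or 39.2%. The share outside was 44.9%, 46.6% and 47.5% for regions lacking replicate 2, 3 or 4 alone, 54.2% for Frais-only regions and 36.5% for regions in all 4. A further contrast lay in which end was touched. The 3′ end alone was touched by 5.74% of Frozen-only regions and a start alone by 2.94%, whereas among regions in all 4 lists the order was reversed, at 3.38% and 14.3%. In the classes lacking 1 Frozen list the 2 shares were close, at 1.52% to 1.86% for the 3′ end and 1.52% to 1.76% for a start. Strand was known only for genes with a RefSeq promoter window, and the ends of the other genes are not in these shares. A start here was that of any of the 20084 promoter windows, also inside a gene, while each of the 16456 genes had 1 outer 3′ end. The 2 shares thus rest on unlike numbers of sites.

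Frozen-only regions lay in gene-dense DNA. They had a median of 13 protein-coding genes within 500 kb (quartiles 8 and 23), against 9, 7 and 7 for regions lacking replicate 2, 3 or 4 alone, 5 for Frais-only regions and 11 for regions in all 4. The nearest gene end was at a median of 8.75 kb, against 27.3, 37.0 and 39.1 kb for regions lacking replicate 2, 3 or 4 alone, 60.4 kb for Frais-only regions and 14.0 kb for regions in all 4. Gene deserts, over 100 kb from any protein-coding gene, held 5.25% of Frozen-only regions. They held 10.3%, 14.9% and 17.8% of the regions lacking replicate 2, 3 or 4 alone, 25.6% of Frais-only regions and 7.98% of regions in all 4. Because strong peaks sit near genes, the comparison was also made at matched strength. From the lowest to the 70th percentile of fold, Frozen-only regions had 12 to 14 genes within 500 kb and regions in all 4 lists 8 to 9. In the top bin, which held 46 Frozen-only regions, the order turned, at 10 genes against 13.

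Read the other way, the share of regions lacking the Frais list increased with gene density. It was 19.6% where 1 to 5 genes lay within 500 kb, 24.9% for 6 to 10, 29.5% for 11 to 20, 34.3% for 21 to 40 and 40.4% for 41 or more. The 620 regions with no gene in reach stood off this order, at 26.5%. The share lacking replicate 2, 3 or 4 went the other way: it was 5.88%, 7.34% and 13.5% with 1 to 5 genes in reach, and 2.99%, 1.44% and 2.99% with 41 or more. By chromosome, Frozen-only regions ranged from 29.0 per 100 regions in all 4 lists on chromosome 13 to 48.9 on chromosome 7, which also had the most genes per Mb of the autosomes. Chromosome 14, with 47.0, had fewer genes per Mb than chromosome 13, at 6.81 against 6.89.

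**Figure D2:**
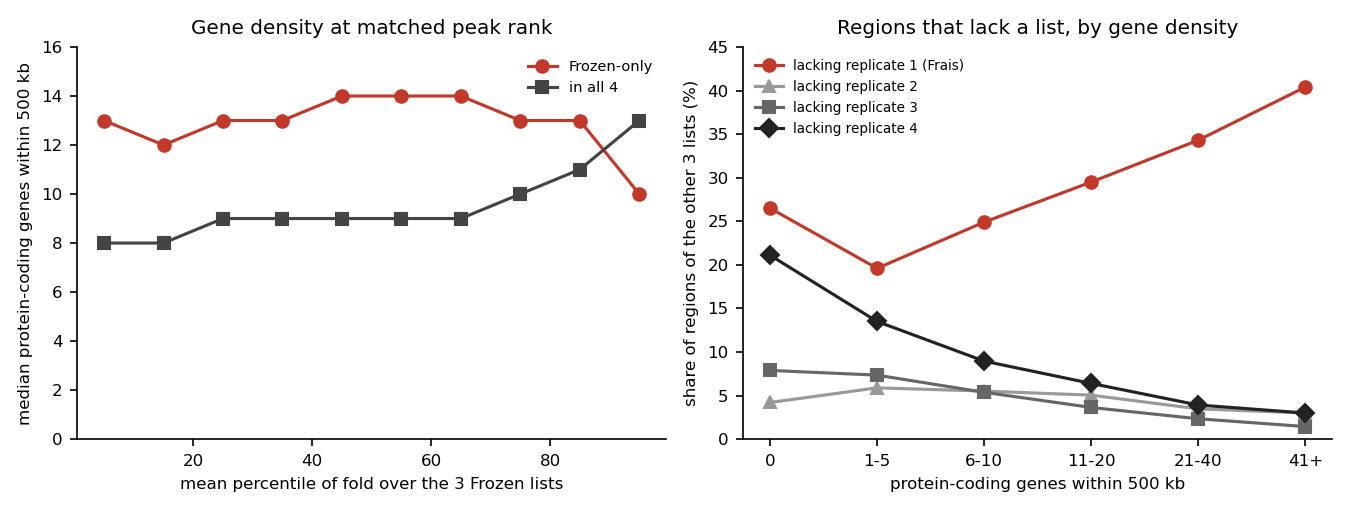
Left, the median number of protein-coding genes within 500 kb of Frozen-only regions and of regions in all 4 lists, by bins of the percentile of fold averaged over the 3 Frozen lists; Frozen-only regions lie above at every bin below the 90th percentile. Right, the share (%) of regions held by the other 3 lists that lack a given replicate, by the number of genes within 500 kb; only the line of replicate 1 climbs to the right, reaching 40.4%.

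The peaks of Frozen-only regions were of middle strength within their own lists. Their median fold was 3.59, 3.90 and 4.05 in replicates 2, 3 and 4, against 6.90, 6.68 and 6.53 for regions in all 4 lists. Averaged over the Frozen lists, the percentile of fold had a median of 47.2, against 80.3. Of the regions held by all 3 Frozen lists, they made up 88.5% below the 10th percentile and 0.259% above the 90th. Only 46 Frozen-only regions, 0.184%, reached the 90th percentile, against 27.3% of regions in all 4. Of their peaks, 33.4%, 43.7% and 37.9% had a deposited q of 1e-05 or less. Their median width was 794 bp (quartiles 578 and 1125), wider than the 610, 584 and 569 bp of regions lacking replicate 2, 3 or 4 alone and the 259 bp of Frais-only regions, and narrower than the 1456 bp of regions in all 4. At matched strength Frozen-only regions were narrower in every bin, with 559 bp against 660 bp between the 10th and 20th percentile of fold, 790 bp against 816 bp between the 40th and 50th, 1019 bp against 1024 bp between the 60th and 70th, and 672 bp against 3072 bp above the 90th. Since a merged region spans the peaks of several lists, widths follow how many lists a class requires and how wide their peaks are. A single peak from each Frozen list made up 19446 of them, or 77.9%.

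At the level of genes, 2649 of 20661 protein-coding genes (12.8%) had a Frozen-only region within 1 kb of an end. Most of these genes also had a region with a Frais peak there. Genes with a Frozen-only region and no region holding a Frais peak at either end numbered 358, or 1.73% of all genes and 6.49% of the 5514 genes without such a peak. The corresponding counts for replicates 2, 3 and 4 were 45, 36 and 70 genes (0.218%, 0.174% and 0.339%). In whole lung, fewer cells with an open region and less signal per cell cannot be told apart.

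Developmental regulators of other organs stood high among these 358 genes. Of 169 such factors in 6 lists, 23 (13.6%) had a Frozen-only region and no Frais peak at an end, beside 1.73% of all genes. No Frais peak lay at an end of 42 of them, 6 of which had no region of any list there. Of all 5514 genes without a Frais peak, 4280 had no region there. Among the 42 factors the share that met the rule was 54.8%. It was 6.49% of the 5514, a background made up mainly of genes never called. By list, the count was 5 of 9 Pax genes, 6 of 16 Hox genes of paralog groups 9 to 13, 2 of 10 skeletal muscle factors, 6 of 45 factors of mesoderm, limb, kidney and gonad, 2 of 22 endoderm factors and 4 of 72 factors of neural tube and brain. The lists overlap, and the 2 muscle factors were Pax3 and Pax7 of the Pax count. The 2 in the endoderm list were Pdx1 and Gsx2, and Gsx2 is best known from the forebrain. For lung regulators the count was 0 of 56, of which 53 had a region in all 4 lists. Only 3 of these 56 lacked a Frais peak at an end, so no more than 3 could have met the rule. These lists were drawn up with earlier results of the same files known, so their counts are descriptions and not independent evidence.

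**Figure D3:**
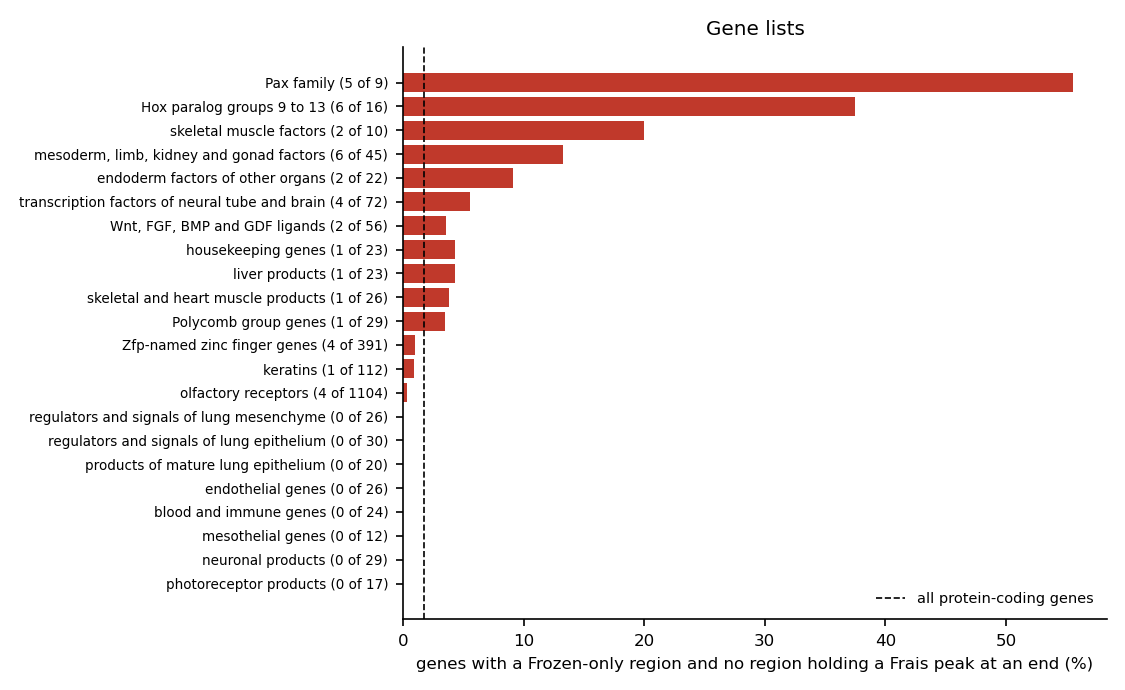
Share (%) of the genes of each list that had a Frozen-only region and no region holding a Frais peak within 1 kb of an annotated end, with counts beside the names; the dashed line marks 1.73% of all protein-coding genes. The Pax family (5 of 9) and Hox paralog groups 9 to 13 (6 of 16) stand highest, and both lung regulator lists are at 0. Those of mesenchyme and epithelium held 0 and 3 genes without a Frais peak at an end.

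Posterior Hox genes, which pattern the limbs, the hindgut and the urogenital tract, made up 6 of the 23 factors. Hoxd9 had a fold of 6.63, 5.29 and 6.53 in replicates 2, 3 and 4, at an averaged percentile of 78.5 ± 3.14 (SD, n = 3 lists). Hoxd13 stood at 69.0 ± 12.6. Hoxd12 had 3.04, 4.46 and 3.73, and the region next to the outer Hoxd11 start had 3.59, 4.18 and 4.36. In that Hoxd11 region the peaks of replicates 2 and 3 only adjoined, and those of replicates 2 and 4 did not meet. Outside the Hoxd cluster, Hoxc12 had 3.31, 3.34 and 3.73, and Hoxb13, a gene of the tail end and prostate, had 3.04, 3.90 and 2.80. None of these 6 genes had a Frais peak at an end. The count of 6 became 7 without replicate 2, 4 without replicate 3 and 4 with an overlap of at least 50 bp. With a q of 1e-05 or less in every list it was 2. Hoxa10, Hoxa11 and Hoxa13 also had Frozen-only regions, but each had a region in all 4 lists at an end as well, and Hoxa9 had no Frozen-only region. Hoxd10 had 3.31, 3.62 and 5.91 in the Frozen lists through regions outside the rule.

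Across the Hoxd cluster on chromosome 2, from 74668225 at the start of Hoxd13, peaks covered 18.5%, 21.4% and 20.1% of the 32.0 kb from Hoxd13 to Hoxd9 in replicates 2, 3 and 4, against 2.15% in replicate 1. The same span held 11, 10 and 9 peaks against 2, of which the stronger Frais peak had a fold of 10.3. From Hoxd8 to Hoxd1, 60.5 kb, the cover was 10.9%, 13.7% and 11.4% against 1.85%. In that anterior stretch 12, 17 and 11 peaks stood against 4, and the strongest Frais peak there had a fold of 23.8, above 10.2, 9.47 and 7.16 in the Frozen lists. The Frais peaks across the cluster were thus few, and the strongest in either stretch had a higher fold than any Frozen peak there, in a list whose folds were higher throughout. Hoxd4, an anterior gene, was the one member of groups 1 to 5 (1 of 15) with a Frozen-only region and no Frais peak, at 3.59, 4.18 and 3.73. That region lay at the 3′ end, 5589 bp downstream of the nearest annotated start. Its replicate 4 peak did not itself reach within 1 kb of the end. Hoxa5, whose programme the series concerns, had no Frozen-only region, with 32.3, 27.9 and 26.1 in the Frozen lists against 118 in the Frais list.

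**Figure D4:**
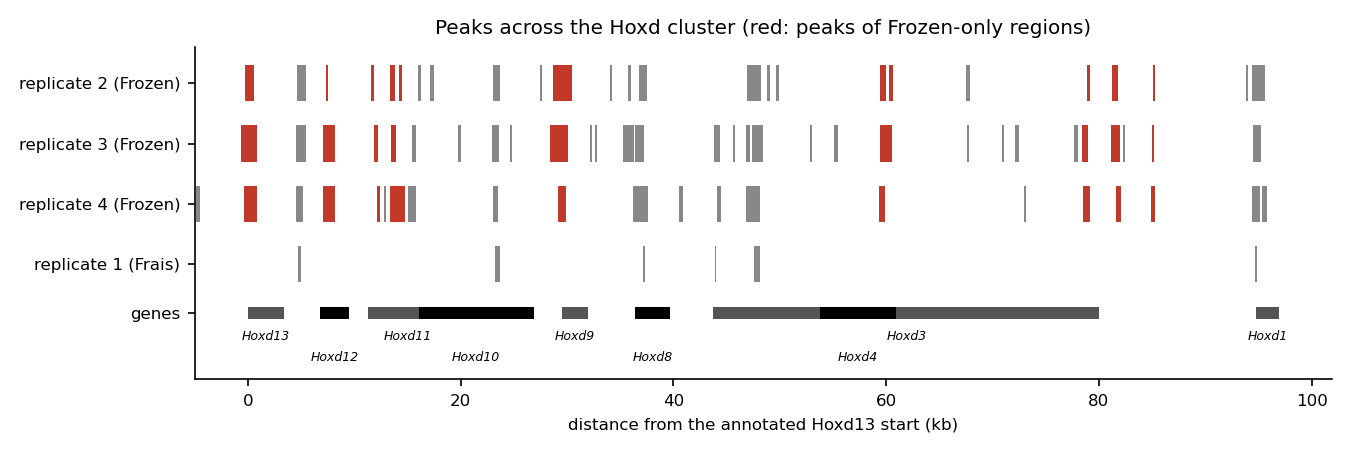
Peaks of each list along the Hoxd cluster, in kb from the annotated Hoxd13 start, with the annotated genes below; red marks peaks of Frozen-only regions and grey all others. The 3 Frozen lists carry red peaks over Hoxd13, Hoxd12, Hoxd11 and Hoxd9, and the Frais list has 6 narrow peaks in the span.

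Pax genes encode paired-domain factors that specify muscle, eye, kidney, thyroid and tooth progenitors. Pax3 and Pax7, which mark muscle progenitors and neural crest, had a fold of 5.52, 5.01 and 4.36 and of 4.97, 5.01 and 4.67 in replicates 2, 3 and 4. The strongest Frozen-only region of Pax9, a factor of pharyngeal pouches and teeth, had 4.42, 5.29 and 4.36. Pax6, the eye and pancreas factor, had 3.59, 3.90 and 2.80 over its CpG-rich start, and Pax8 of thyroid and kidney had 3.31, 2.79 and 3.11, close to the floor of the lists. The Pax7 region was 2677 bp wide and lay 0.450 kb from a Frais peak, while the strongest regions of Pax3, Pax6, Pax8 and Pax9 lay 4.59 to 13.8 kb from one.

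Among factors of other organs, Uncx of the somites had a fold of 4.14, 4.18 and 5.60 in replicates 2, 3 and 4, and Hand1 of the heart and placenta had 4.69, 3.90 and 4.36. Pdx1, the pancreas factor, had 4.97, 4.74 and 3.73, and Gsx2 of the ventral forebrain had 3.86, 3.06 and 4.36. In neural factors, Lhx8 of forebrain cholinergic neurons had 4.42, 4.18 and 4.05 and Neurod2 had 3.31, 3.90 and 4.36. A Frais peak lay 0.845 kb from the Lhx8 region and 0.0930 kb from the Neurod2 region. For Nkx2-4 and Olig2 the distance was 26.9 and 43.0 kb. With 1 kb or more from a Frais peak required, the count of neural factors went from 4 to 2. Foxd3 of neural crest was the weakest together with Pax8, at an averaged percentile of 19.4. Over the 23 genes the percentile had a median of 53.6, and over all 358 genes a median of 52.6. A start was known for 17 of the 23 genes, and the strongest Frozen-only region lay over it in 11 (64.7%). Over the 358 genes it did so in 105 of 276 (38.0%).

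Counted by list rather than by class, the Frozen libraries had a region with their peak at an end of 156, 158 and 155 of the 169 developmental factors (92.3%, 93.5% and 91.7%), and the Frais library at 127 (75.1%). For Hox groups 9 to 13 the counts were 15, 15 and 15 of 16 against 7, and for the Pax family 7, 8 and 7 of 9 against 2. Lung regulators showed 55, 55 and 53 of 56 against 53, and housekeeping genes 23, 23 and 23 of 23 against 22. Over all genes the shares were 75.3%, 76.2% and 75.8% against 73.3%. Neuronal products, as markers of nerve cells, were at 26, 21 and 24 of 29 against 21, and none of the 29 had a Frozen-only region without a Frais peak. The gap was smaller with a stricter threshold. With a q of 1e-05 or less in every list, developmental factors stood at 74.6%, 81.1% and 76.3% against 71.0%, and all genes at 71.0%, 71.3% and 70.6% against 72.0%. Of the factors, 9 (5.33%) then met the gene rule, beside 0.741% of all genes. With lists of equal length they stood at 85.8%, 86.4% and 86.4% against 75.1%, and 13 (7.69%) met it, beside 1.03%.

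**Figure D5:**
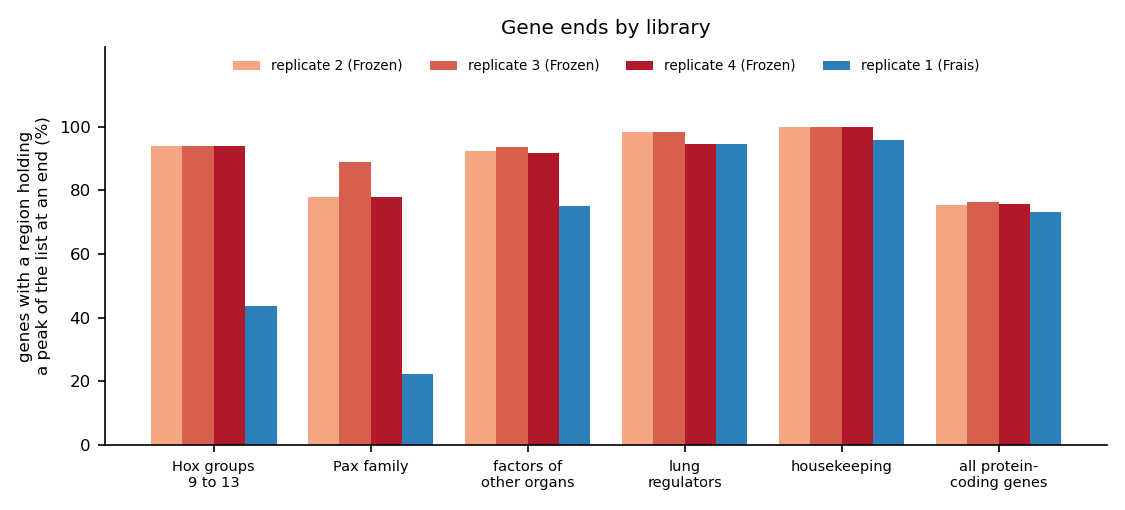
Share (%) of the genes of each list with a merged region holding a peak of the named library within 1 kb of an annotated end, for replicates 2, 3 and 4 (Frozen) and replicate 1 (Frais). The Frais bar is lower than the Frozen bars for Hox groups 9 to 13 (7 of 16 genes), the Pax family (2 of 9) and factors of other organs (127 of 169), and near them for lung regulators (53 of 56).

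Most promoters under Frozen-only regions were not CpG-rich. Of 20084 RefSeq promoter windows, 360 (1.79%) were overlapped by a Frozen-only region and by no region in all 4 lists. They had a median observed/expected CpG of 0.271 and a GC content of 56.0%, against 0.752 and 61.7% for windows under regions in all 4. CpG-rich windows, with an observed/expected ratio of at least 0.6 and at least 50% GC, made up 16.7% of the Frozen-only windows. For windows under regions lacking replicate 2, 3 or 4 alone this share was 14.0%, 23.3% and 15.8%, on 50, 30 and 57 windows. It was 10.9% under regions in 1 or 2 Frozen lists with no Frais peak, 67.1% under regions in all 4 and 1.93% without a peak. Seen from the CpG-rich windows, 97.2% were under a region in all 4 lists and 0.643%, 60 windows, under a Frozen-only one.

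The CpG-rich minority held many developmental regulators. Of its 52 genes, 10 (19.2%) were factors of the 6 lists: Nkx2-4, Hoxd13, Hoxd11, Olig2, Foxd3, Hoxa11, Cdx2, Pax6, Dbx1 and Shox2. Of these, Hoxa11, Cdx2, Dbx1 and Shox2 also had a region holding a Frais peak at an annotated end. Regions in 1 or 2 Frozen lists without a Frais peak gave a like share, 14 of 68 (20.6%), so it was not particular to calls in all 3. Among CpG-rich genes under regions lacking replicate 2, 3 or 4 alone, the factors were 0 of 7, 0 of 7 and 0 of 9, under regions in all 4 lists 53 of 7975 (0.665%), and among all CpG-rich genes 81 of 8209 (0.987%). Of CpG-rich genes without a Frais peak at an end, 21.1% met the gene rule, 8 of 16 factors and 61 of 311 other genes. For genes whose promoter was not CpG-rich the share was 5.03%, 9 of 14 factors and 198 of 4100 others, so factors stood above other genes in both strata. A gene counted as CpG-rich if any of its promoter windows was, also at a start inside the gene. The gene rule looked only at the outer annotated ends, so a CpG-rich start inside a gene may still hold a Frais peak. Genes with no region of any list at an end are in these shares.

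Other CpG-rich starts under Frozen-only regions included the following, picked after their values were seen from windows that also held those of Mark1, S1pr5, Thbs4 and Nap1l5. Sp8, a zinc finger factor of limb ridge and brain, had 32 CG in its window and a fold of 6.63, 5.57 and 6.85 in replicates 2, 3 and 4. Six6 of the eye had 4.14, 3.06 and 4.67, and Gad1, which makes the transmitter GABA, had 3.04, 3.90 and 3.42. Sycp3, a part of the meiotic synaptonemal complex, had 4.42, 5.57 and 4.98. Cyp26a1, which breaks down retinoic acid, had 3.04, 3.62 and 5.29. Sp8, Six6 and Cyp26a1 met the gene rule, while Gad1 and Sycp3 did not.

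Gene lists outside transcription factors gave counts of 0 to 4, read against 1.73% of all genes. No gene met the rule among 20 products of mature lung epithelium, 26 endothelial, 24 blood and immune, 12 mesothelial, 29 neuronal and 17 photoreceptor genes. The same held for 354 vomeronasal receptors and 57 clustered protocadherins. Only genes without a Frais peak at an end could meet it. In the same order, these numbered 4, 1, 10, 0, 8, 10, 347 and 34. The count for mesothelial genes was thus fixed in advance. Among vomeronasal receptors and protocadherins, 339 and 33 genes had no region of any list at an end. A single gene met the rule among 23 liver products (Ambp), 26 muscle products (Myh6), 23 housekeeping genes (Ywhaz), 29 Polycomb group genes (Cbx7) and 112 keratins (Krt15). These shares, each resting on 1 gene, were 4.35% for liver products, 4.35% for housekeeping genes, 3.85% for muscle products, 3.45% for Polycomb group genes and 0.893% for keratins. Ywhaz and Cbx7 were the only genes of their lists without a Frais peak at an end. The Cbx7 and Myh6 regions lay at 3′ ends, 17743 and 23845 bp downstream of the nearest annotated start. The strand of Ywhaz was not known here. Among 56 Wnt, FGF, BMP and GDF ligands, 2 met the rule, Fgf20 with a fold of 4.42, 3.90 and 4.36 and Gdf2 with 3.31, 3.90 and 3.42, a share of 3.57%. Olfactory receptors gave 4 of 1104, the Olfr1344 region at 2.76, 2.79 and 2.80, and Zfp-named zinc finger genes 4 of 391. Of the olfactory receptors, 1061 had no region of any list at an end. A Frozen-only region at an end, whether or not a Frais peak was there too, was found in 56 of 169 developmental factors (33.1%) and in 5 of 56 lung regulators (8.93%), beside 12.8% of all genes. The 5 were Bmp4, Shh, Tbx5, Mycn and Nkx2-1. Such a region was also frequent at 7 of 29 neuronal products (24.1%), 12 of 56 ligands (21.4%) and 4 of 15 Hox genes of groups 1 to 5 (26.7%). Endothelial genes, at 3 of 26 (11.5%), and blood and immune genes, at 2 of 24 (8.33%), lay below the share of all genes.

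The strongest Frozen-only regions were not at gene ends. The 15 with the highest averaged percentile, from 94.4 to 97.9, all lay outside the 1 kb windows, and 6 were inside a gene. The highest, chr17:31570179-31570872 in Pknox1, a homeodomain cofactor of Hox proteins, had a fold of 40.3, 43.7 and 28.0 in replicates 2, 3 and 4. The nearest Frais peak was 4.12 kb away. A region of 1137 bp inside Ror2, a Wnt5a receptor, at chr13:53269485-53270621, had 28.7, 29.8 and 36.7, with a Frais peak at 2.57 kb. Others lay in Prkag2, Rgl1, Gsdma2 and Fras1, a gene of the extracellular matrix under epithelia, at 16.3, 18.7 and 20.8. A region 130 kb from Zfp521 spanned 182 bp, the narrowest of all Frozen-only regions, with 37.0, 38.7 and 31.4. The widest Frozen-only region, 6684 bp at chr15:6527231-6533914, was inside Fyb and had 5.25, 5.85 and 8.09. Another, of 5709 bp, lay at the end of Arhgap33, where 56 genes were within 500 kb.

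Frozen-only regions were spread over 9295 of 24617 windows of 100 kb (37.8%), and 217 windows held 10 or more. Counted within 100 kb of a gene, Gse1 had 45 and Septin9 had 40, next to 56 and 42 regions in all 4 lists. Per 100 kb searched these were 8.14 and 11.0, and Exoc3l2 and Coq8b in gene-dense chromosome 7 had 15.4 and 14.8. The 5 fullest windows included 19 in Septin9 on chromosome 11, and 25 at Gm32719 on chromosome 12, 22 at Gm3373 and Gm3383 and 18 at Gm3558 and Gm10338 on chromosome 14, and 20 at Speer4d on chromosome 5. The Gm and Speer genes may have close copies elsewhere, which was not examined here. How reads with several matches were placed is not given in the sources used here, so counts at these 4 windows are uncertain.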

How the data were processed

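The 4 libraries of 1 group were analysed. The authors deposited 1 narrowPeak list per library. Per the submitters' processing notes, the tools were MACS3 3.0.1, Bowtie2 2.5.2, Trim Galore, FastQC 0.12.1, deepTools, SAMtools 1.18 and bedtools 2.31.0, on build mm10. Their role, order and settings, the removal of duplicates and the Tn5 shift are not given in the sources used here. The authors' deposited fold is a ratio of peak height to background, and was used to describe peaks and rank them within a list. Each deposited peak also carried −log10 p and −log10 q values, and q set an alternative threshold. The deposited score and the deposited summit offset were not analysed.

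Peaks on chromosomes 1 to 19 were merged where they overlapped or adjoined, and between 4299 and 7882 peaks per list on other chromosomes and contigs were left out. A region's fold in a list was that of its strongest peak there. Genes (20661, protein-coding) and 20084 promoter windows of 16456 genes came from RefSeq tables of GRCm38.p6, the same assembly as mm10. A gene end was the outermost annotated start or end plus 1 kb either side, so starts inside a gene were not gene ends. Genes were counted for a list through merged regions, not through its own peak in the window. Members, gene lists and tests were chosen with earlier results of these data known. Named genes were Hox groups 9 to 13, the 3 strongest of each list, the strongest, widest and most crowded regions, and fixed markers. The other Hox genes, the remaining developmental factors and the further CpG-rich starts were named after their values were seen. An item is not reported here. Of the promoter sequences, the plan named the highest in CpG, and the 2 lowest were put in for contrast. The code for merging, overlap and distance was checked on simulated intervals against bedtools and direct counting. Python 3.11.15, numpy 2.4.6, pandas 2.3.3, scipy 1.17.1 and matplotlib 3.10.9 were used.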

Additional observations from a re-analysis of the deposited data

Results flagged for a closer look

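Quantities of the 4 libraries were compared by Dixon's ratio, the gap between the most distant library and its nearest neighbour over the whole range. Of 9 quantities examined, 3 passed the 95% critical value, and chance flags about 1 in 20 groups. These 3 concerned replicate 1, and they are not independent of each other. The number and location of regions lacking replicate 1 alone come from the rule that defines the Frozen-only regions, so their ratios describe the lists and support nothing further. The median fold enrichment was 3.86, 3.90 and 3.73 in replicates 2, 3 and 4 and 8.99 in replicate 1, at a ratio of 0.968. The number of regions lacking replicate 1 alone was 24967, against 3418, 3167 and 5855 for replicates 2, 3 and 4. Of those regions 10.6% lay at gene ends, against 4.27%, 3.79% and 3.83%. The number of autosomal peaks, the Mb covered and the gene density of the regions lacking a list were among the 6 quantities that did not pass.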

How the results depend on the processing

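The number of Frozen-only regions, those at gene ends, genes with one at an end, the median width, the number outside protein-coding genes and the count of developmental factors with one and no Frais peak were recomputed. Against 24967 regions, 2642 at ends, 2649 genes, 794 bp, 9795 outside and 23 factors, a q of 1e-05 or less in every list gave 5202, 699, 771, 1097 bp, 2211 and 9. The same q in the Frozen lists alone gave 4083, 527, 589, 1048 bp, 1705 and 7, and lists of equal length gave 12190, 1453, 1540, 918.5 bp, 4839 and 13. Together with a distance of 1 kb or more from a Frais peak, an alternative chosen after seeing the data, the q in the Frozen lists gave 2961, 362, 412, 1031 bp, 1292 and 6. Windows of 0.5 and 2.5 kb gave 1692 and 5911 regions at ends and 1752 and 5444 genes. Leaving out replicate 2, 3 or 4 in turn gave 36203 to 45390 regions, 3506 to 4192 at ends, 3378 to 3904 genes, 576 to 610 bp, 14377 to 17887 outside and 21 to 26 factors. Without replicate 4, 2 lung regulators met the gene rule that 0 met with all lists. A stricter threshold or fewer lists changes these counts by construction. A 50 bp overlap, a distance of 1 kb from a Frais peak and the removal of peaks wider than 10 kb moved none of the 6 values by over 1.5 times, or the width by over 1 SD between libraries (51.2 bp). In the settings with a 1 kb window the share at gene ends stayed between 9.24% and 13.4%. No paired analysis was possible because the libraries form 1 group. Read depth was not analysed here, so a missing Frais peak could not be weighed against it.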

Other observations

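Small RNA and non-coding genes under Frozen-only regions were counted on chromosomes 1 to 19. Annotated lncRNA genes had an end within reach of 5.44% of Frozen-only regions, against 9.67% of regions in all 4 lists. Of 391 tRNA genes, 11 (2.81%) had a Frozen-only region, against 268 (68.5%) with a region in all 4. Of 1136 miRNA genes, 111 (9.77%) had a Frozen-only region, against 414 (36.4%). Of 1286 snoRNA genes, 93 (7.23%) had one, against 209 (16.3%).

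Some signalling and regulatory genes outside the lists, named after their values were seen, had a Frozen-only region and no Frais peak at an annotated end. Tgfb2, a TGF-beta ligand, stood at an averaged percentile of 87.4, and Gata3, a zinc finger factor of T cells and kidney, at 79.9. On the X chromosome, which the rule leaves out, 385 regions met the same peak pattern, or 28.9 per 100 regions in all 4 lists, just below the lowest autosome, chromosome 13, with 29.0.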
